A study of Lotus japonicus with 10 samples.

Results

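The 3 chalcone reductase names described here had opposite signal differences in Lotus japonicus leaves placed in glutathione (GSH), 1 of them lower and 2 higher than in unelicited leaves. The names CHR01_LjT35G18.140.nd, CHR04_CM1092.70.nc and CHR05_CM1092.80.nc were picked by name from the 3148 gene names of a focused one-colour Agilent array, with 2 probes each, 6 probes of 5716. They had been chosen because their signals against unelicited leaves were known to differ in sign, so those differences are given as a description without a test. The samples were mature leaves of the MG20 accession grown in a glasshouse: 4 unelicited samples given a time of 0 h, 3 samples after 3 h in GSH and 3 samples after 6 h in GSH. For the GSH samples the leaves were cut from the plant and kept under 10 mM GSH, a tripeptide thiol used as an elicitor of defence, with shaking at 200 rpm and 28 °C. Leaves detached, submerged and shaken without GSH are not among the samples analysed here, so the effects of GSH, wounding, submersion, warmth and elapsed time cannot be told apart.

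Chalcone reductase is an enzyme of the aldo-keto reductase family, also called polyketide reductase. It acts together with chalcone synthase, removing an oxygen from the growing polyketide before ring closure, so that the product is a deoxychalcone in place of the usual chalcone. Legumes make many of their isoflavonoid phytoalexins from deoxychalcones, among them vestitol in Lotus, and the enzyme stands at the point where that branch leaves general flavonoid synthesis. The files hold no probe or gene sequence, and none of the 3148 names matched a symbol among the 40429 genes of the reference table (0 matches). The place of each gene is therefore known only from the locus in its name: CHR04 and CHR05 carry consecutive numbers on the contig CM1092, and CHR01 lies on the clone LjT35G18, which also carries CHR02, CHR03 and CHR10.

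Each array had 2644 to 3805 probes (46.3% to 66.6%) well above background, and 0 saturated spots. Unelicited replicates 1 and 2 were on slide 1, and the other 8 arrays were on slide 2, which was scanned separately. Unelicited arrays had correlations across probes of 0.827 to 0.853 where they came from different slides and of 0.973 to 0.978 where they shared one. None of the 17 name prefixes searched as markers of leaf, nodule, root, guard cell or trichome occurs on the array, so the labelled tissue could not be checked. The labels number the replicates without saying whether they came from separate plants, so a p-value measures only the spread between these samples, which may be technical. Precision is limited by having 3 or 4 arrays per group.

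CHR01 was bright in unelicited leaves and close to the local background after GSH. On its probe 1 the processed signal, a background-subtracted intensity on a linear scale, was 5370, 2710, 13600 and 8010 in unelicited replicates 1 to 4. It was 10.1, 12.2 and 18.3 in GSH 3 h replicates 1 to 3. It was 20.4, 11.3 and 20.8 in GSH 6 h replicates 1 to 3. All unelicited arrays were thus high and all GSH arrays low, with no overlap between them, and the raw spot medians in GSH leaves were 56 to 76 beside a local background of 35 to 42.5.

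The second CHR01 probe had the same order. Its processed signal was 5080, 2970, 11800 and 5840 in unelicited replicates 1 to 4, then 10.5, 7.02 and 6.65 at 3 h and 9.75, 5.09 and 14.9 at 6 h. Neither probe was well above background on any of the 3 arrays at 3 h. At 6 h probe 1 was well above background on 1 of 3 arrays and probe 2 on none.

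To compare arrays, the log2 processed signal was set relative to the 75th percentile of its own array, which is 0 on this scale. On that scale CHR01 probe 1 was at 3.75 ± 0.19 (SD, n = 4) in unelicited leaves, −5.13 ± 0.51 (n = 3) at 3 h and −4.40 ± 0.54 (n = 3) at 6 h. Probe 2 was at 3.60 ± 0.31, −5.86 ± 0.52 and −5.30 ± 0.83. Since the GSH signals lie near the detection limit, the folds are bounds. On the processed signal CHR01 was at least 335-fold lower on probe 1 and at least 302-fold lower on probe 2 at 3 h, and at least 237-fold lower on probe 2 at 6 h. These bounds hold only for that background subtraction: after normexp correction, which adds an offset of 50 to every signal, CHR01 was 46.7-fold and 40.3-fold lower at 3 h and 57.6-fold lower on probe 2 at 6 h. No fold is given for probe 1 at 6 h, where 2 of 3 arrays were not well above background. In whole leaves less of this RNA per cell and fewer cells that hold it cannot be told apart.

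CHR04 and CHR05 differed the other way, with signals far higher in GSH leaves than in unelicited leaves. On CHR04 probe 1 the processed signal was 127, 477, 2920 and 6710 in unelicited replicates 1 to 4. It was 143000, 230000 and 217000 at 3 h, and 219000, 305000 and 208000 at 6 h. Every GSH array stood far above every unelicited one, while the unelicited arrays themselves were spread widely, with replicate 1 lowest and replicate 4 highest.

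On CHR04 probe 2 the unelicited signals were 59.2, 248, 1800 and 4300, those at 3 h 79300, 137000 and 126000, and those at 6 h 122000, 188000 and 110000. CHR05, the neighbouring locus, had the same order of groups. Its probe 1 read 116, 435, 2260 and 6710 in unelicited replicates 1 to 4, 133000, 201000 and 195000 at 3 h, and 188000, 276000 and 186000 at 6 h. Its probe 2 read 65.8, 239, 1660 and 3880, then 77400, 205000 and 111000, then 183000, 160000 and 99700. All 4 probes were well above background on all 10 arrays, so these are measured differences on both sides.

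**Figure D1:**
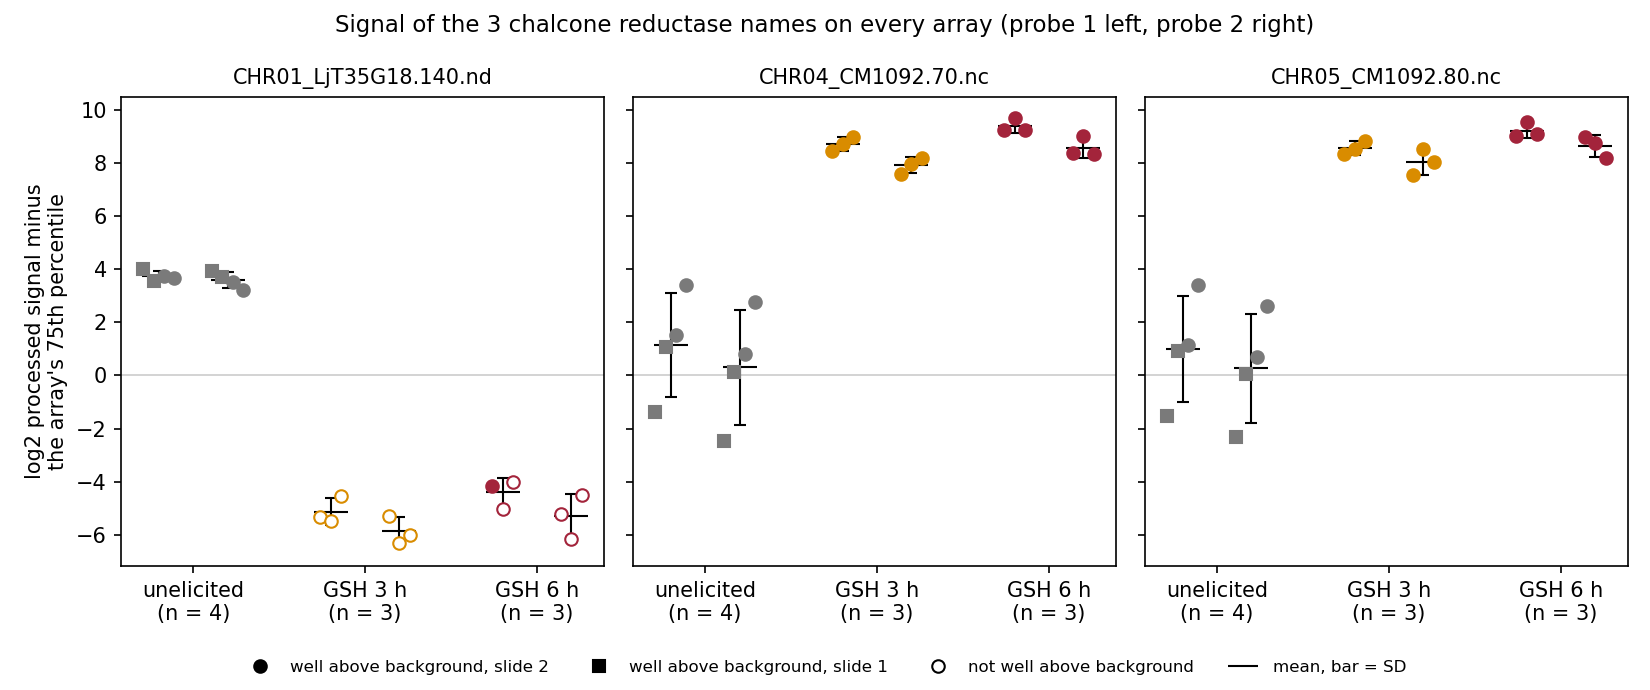
Log2 processed signal relative to the 75th percentile of the array (y axis) of CHR01, CHR04 and CHR05 on every array, by group along the x axis, with probe 1 on the left and probe 2 on the right of each group. Squares are arrays of slide 1, circles arrays of slide 2, open symbols spots not well above background, and bars the mean ± SD. CHR01 lies above 3 in unelicited leaves and below −4 after GSH, while CHR04 and CHR05 lie above 7 after GSH and spread over 4.78 to 5.24 units per probe in unelicited leaves.

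On the log2 scale CHR04 probe 1 averaged 1.15 ± 1.97 (SD, n = 4) in unelicited leaves, 8.71 ± 0.27 (n = 3) at 3 h and 9.40 ± 0.26 (n = 3) at 6 h. CHR05 probe 1 averaged 0.99 ± 2.01, 8.56 ± 0.25 and 9.22 ± 0.29 in the same groups. The 3 h differences from unelicited leaves were 7.56 (SE 0.86) and 7.61 (SE 0.94) on the 2 probes of CHR04 and 7.57 (SE 0.87) and 7.78 (SE 0.90) on those of CHR05. The 6 h differences were 8.25 (SE 0.86) and 8.27 (SE 0.94) for CHR04 and 8.23 (SE 0.87) and 8.38 (SE 0.90) for CHR05. The 3 h and 6 h differences share the unelicited arrays.

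These differences were large within the array as a whole. Of the 2262 probes well above background on every unelicited and every 3 h array, the 4 probes of CHR04 and CHR05 had the 26th to 30th largest positive differences, with only 1 other probe between them. At 6 h they ranked from 22nd to 26th among 2179 such probes. No rank is given for CHR01, whose GSH values lie at the floor.

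In the fit across all probes, all 6 probes of the 3 names passed an adjusted p of 0.05 against unelicited leaves at both times, 2 downward and 4 upward. So did 74.2% of all 3309 tested probes at 3 h (37.5% higher and 36.7% lower) and 75.9% at 6 h (37.5% higher and 38.4% lower). The groups did not overlap on any of the 6 probes, and neither did they for 75.6% of all tested probes at 3 h and 74.3% at 6 h. The names were chosen on these contrasts, and the counts stand here only beside the background. CHR01 met the filter for testing through the unelicited arrays alone.

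The size of the CHR04 and CHR05 differences depends on which unelicited arrays they are set against. Unelicited CHR04 probe 1 averaged 2.46 on slide 2 and −0.15 on slide 1, and CHR05 probe 1 averaged 2.27 on slide 2 and −0.29 on slide 1. Against the unelicited arrays of slide 2 alone, the slide that also holds all GSH arrays, the 3 h differences were 6.13 to 6.38 and the 6 h differences 6.79 to 6.99 over the 4 probes. Even the nearest pair of arrays lay far apart: the lowest GSH value of CHR04 probe 1 exceeded its highest unelicited value by 5.04, and the smallest such gap over the 4 probes was 4.83.

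Unelicited arrays of 1 slide differed from each other as well. Within slide 2, unelicited replicate 4 read 3.40 on CHR04 probe 1 and replicate 3 read 1.51, and within slide 1, replicate 2 read 1.07 and replicate 1 read −1.38. The SD over the 4 unelicited arrays was 1.97 to 2.17 on the CHR04 and CHR05 probes. The median SD was 0.57 over the 2933 probes well above background on all unelicited arrays, and 97.6% to 98.3% of those probes had a smaller SD than the 4 probes of CHR04 and CHR05. CHR01 was among the steadier probes, with SDs of 0.19 and 0.31 and with 8.11% and 21.9% of probes below them. Its slide 2 and slide 1 means differed by only −0.10 on probe 1 and −0.46 on probe 2. In GSH leaves the spread of CHR04 and CHR05 was far smaller, with SDs of 0.25 to 0.49 at 3 h and 0.26 to 0.40 at 6 h.

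The comparison of 6 h with 3 h did not enter the choice of the 3 names, although it shares the 3 h arrays with one that did. It asks whether the response was still moving between the times. CHR04 was higher at 6 h by 0.69 on probe 1 (95% interval −1.35 to 2.73, adjusted p = 0.752) and by 0.66 on probe 2 (−1.58 to 2.90, adjusted p = 0.781). CHR05 was higher by 0.66 on probe 1 (−1.42 to 2.74, adjusted p = 0.764) and by 0.61 on probe 2 (−1.54 to 2.76, adjusted p = 0.791). None of these passed in limma with Benjamini-Hochberg adjustment over 3309 probes.

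For CHR01 no difference between the times was measured, since its signals were near background at both and the sign of the fitted value turned with the background correction. Counting its probes, 0 of the 6 had an unadjusted limma p under 0.05 (range 0.0718 to 0.543), beside 724 of all 3309 tested probes. After adjustment 0 of the 6 passed, where 5.35% of all tested probes passed (3.35% higher and 1.99% lower at 6 h). That background count was 177 probes, and it lay between 27 and 193 when any 1 array was left out. The groups did not overlap on 3 of the 6 probes, both of CHR04 and probe 1 of CHR05, and they did not overlap on 38.4% of all tested probes.

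The fit shares 1 estimate of the spread over all groups, so the wide unelicited values of CHR04 and CHR05 enter the intervals above. Tested on the 6 GSH arrays alone, a choice made after that spread had been seen, the same differences had adjusted p = 0.124 and 0.169 for the CHR04 probes and 0.136 and 0.269 for the CHR05 probes in limma. As the mean of its probes, CHR04 was at 8.99 ± 0.32 at 6 h and 8.32 ± 0.29 at 3 h (SD, n = 3 each), a difference of 0.67 with an exact two-sided permutation p = 0.1, the smallest that 3 against 3 arrays allow. CHR05 was at 8.94 ± 0.27 at 6 h and 8.30 ± 0.31 at 3 h, a difference of 0.63 with the same exact permutation p = 0.1. The limma intervals leave room for differences of either sign, so a p that misses the threshold does not show that the levels at 6 h and 3 h were alike.

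The order of the levels was therefore 6 h, 3 h and unelicited for CHR04 and CHR05, from high to low, with the 6 h and 3 h levels not separated by a test. For CHR01 the unelicited level was the higher, and no order between 6 h and 3 h was measured. CHR04 and CHR05 were almost one profile. As means of their probes they correlated at r = 0.999 over the 10 arrays, a description in which the step between unelicited and GSH leaves carries most of the range. Neighbouring, similar genes can share hybridisation, and since no sequence was at hand, whether the CHR04 and CHR05 probes measured 2 transcripts or 1 was not tested. CHR01 correlated with them at −0.959 and −0.961.

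The array holds 9 further chalcone reductase names with 18 probes. CHR02_LjT35G18.70.nd, on the same clone as CHR01, was the only one of the 9 with a tested probe. Its probe 2 read 2500, 1520, 2250 and 1430 in unelicited replicates 1 to 4, then 25.9, 21.8 and 7.68 at 3 h and 17.6, 9.9 and 14.7 at 6 h. These GSH values all lay below the unelicited ones, and the probe was well above background on 2 of 3 arrays at 3 h and on none at 6 h. CHR02 met the filter for testing through the unelicited arrays alone, so its differences are given as a description. On the processed signal probe 2 fell by 6.81 (SE 0.57) at 3 h and was at least 74.7-fold lower at 6 h. On the same signal CHR02 probe 1 fell by 6.36 (SE 0.57) at 3 h and was at least 48.4-fold lower at 6 h. With normexp correction the differences were −3.59 at 3 h and −4.17 at 6 h on probe 2, and −3.02 and −3.42 on probe 1. On the log2 scale relative to the 75th percentile, unelicited CHR02 probe 2 read 2.92 and 2.74 on slide 1 and 1.14 and 1.17 on slide 2. The size of its differences therefore depends on the unelicited arrays used. CHR02 had thus the direction of CHR01 in both contrasts.

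The other 2 names of that clone stayed dim. CHR10_LjT35G18.80.nd was well above background on 0 of 10 arrays, and CHR03_LjT35G18.90.nd was on 2 of 3 arrays at 3 h and 2 of 3 at 6 h on 1 probe, with signals of up to 27.1, and on no unelicited array. Among the 18 probes of the 9 names, 13 were not well above background on any of the 10 arrays. CHR06, CHR08, CHR11 and CHR12 were at that level on both probes, and CHR07 and CHR09 rose above it on 1 unelicited array each, on 1 probe. Of the 12 names, 4 were thus measured above background throughout some group: CHR01 and CHR02 in unelicited leaves, and CHR04 and CHR05 in all 3 groups.

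**Figure D2:**
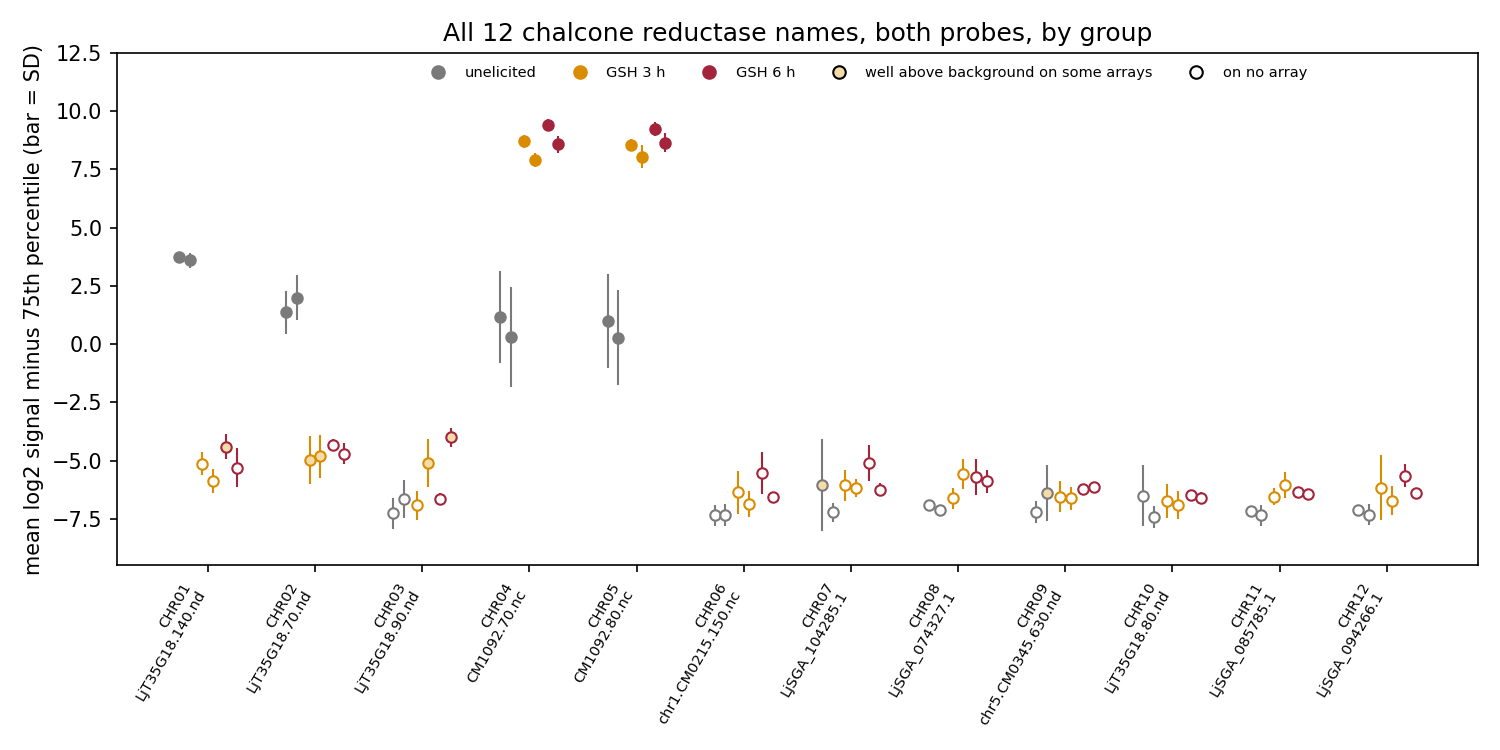
Mean log2 signal minus the array's 75th percentile (y axis, bars are SD) of both probes of the 12 chalcone reductase names (x axis) in unelicited leaves (n = 4), GSH 3 h (n = 3) and GSH 6 h (n = 3). Filled points were well above background on all arrays of the group, pale points on some and open points on none. Only CHR01 and CHR02 are lower and only CHR04 and CHR05 are higher after GSH among the names with filled points, and the other 8 names lie near background. The polyketide reductase names (PKR) are not drawn.

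Genes of the pathway were counted on 1 probe per locus, the brighter on average, without the 3 names described here. These targets, and the probes named below, could meet the filter through 1 group alone, which favours a difference for them. The tested targets of chalcone and flavanone formation were chalcone synthase, chalcone isomerase and polyketide reductase names, and CHR02. In chalcone and flavanone formation, 38 targets were tested: at 3 h 23 were higher, 9 were lower and 6 missed the threshold, and the median difference was 5.54 beside −0.05 for all probes. At 6 h the numbers were 23, 8 and 7, and the median was 5.60 beside −0.07. Under quantile normalization the medians of this list were 3.13 and 3.11, and over all 48 targets, without the filter on dim probes, they were 1.55 and 2.23. These counts stand beside the 37.5% of all probes that rose at each time, and 36.7% and 38.4% that fell.

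Chalcone synthase, the partner enzyme that builds the polyketide, had both directions: 17 of 26 tested names rose, by 4.80 to 6.96 at 3 h, and 6 fell, by up to −7.00. At 6 h it was again 17 and 6, from 4.70 to 6.54 upward and to −7.56 downward. The CHS names on the contig chr2.CM0018 rose by 5.40 to 5.86 at 3 h. Similar genes can share hybridisation, so whether the CHS names, or the PKR names below, measured separate transcripts was not tested. The largest rise on any probe of the list at 3 h was in CHS20_chr3.CM0590.740.nc, at 5.71 ± 0.08 (SD, n = 3) in GSH 3 h leaves and −2.77 ± 1.10 (n = 4) in unelicited leaves (adjusted p = 2.57e-07). The other CHS20 probe rose by 5.88. The largest fall was in CHS11_chr1.CM0593.380.nc, at −4.94 ± 1.11 and 2.91 ± 1.78 in the same order (adjusted p = 2.02e-05), well above background on 2 of 3 arrays at 3 h and at least 147-fold lower on the processed signal at 6 h (40.0-fold with normexp). The other CHS11 probe, measured on all arrays of both groups, differed by −7.00 at 3 h and −7.56 at 6 h.

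The 5 polyketide reductase names, PKR1 to PKR5, are not among the 12 CHR names, although polyketide reductase is another name of the enzyme. They lie on other loci, 4 of them on the contig chr2.CM0191, and all 5 rose, by 6.52 to 6.67 at 3 h and by 5.46 to 6.06 at 6 h. PKR4_chr2.CM0191.400.nc had on 1 probe the largest rise of the list at 6 h, at 5.96 ± 0.67 in GSH 6 h leaves and −2.52 ± 0.79 in unelicited leaves (adjusted p = 1.14e-07), while its other probe rose by 6.00. Of 6 chalcone isomerase names, for the enzyme that closes chalcones to flavanones, 1 rose at each time, by 4.26 at 3 h and 5.09 at 6 h (CHI06_chr5.CM0034.130.nc), while 2 fell at 3 h and 1 at 6 h. In unelicited leaves the slide 2 minus slide 1 difference had a median of 1.23 over this list, −0.80 over phenylpropanoid entry and 1.42 over the isoflavonoid branch. The counts were also run on slide 2 alone and with the slide as a block. The isoflavonoid medians on slide 2 alone are given below. Whether the slide caused any part of the counts was not tested.

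Upstream, 19 of 20 targets of phenylpropanoid entry (phenylalanine ammonia-lyase and cinnamate 4-hydroxylase names) rose and 1 fell at 3 h and again at 6 h, with medians of 4.62 and 3.65. CYP73ALT_ntc, a cinnamate 4-hydroxylase name, was higher by 8.76 (SE 1.34, adjusted p = 0.00018) at 3 h and by 8.80 (SE 1.34, adjusted p = 0.000163) at 6 h on its brighter probe, which was well above background on 3 of 4 unelicited arrays. Its other probe, on no unelicited array well above background, gave bounds of at least 2764-fold at 3 h and at least 2620-fold at 6 h on the processed signal, and was 542-fold and 653-fold higher with normexp. The probes of this name thus differ in size and share the direction. PAL09_chr5.LjT17D03.50.nd, a phenylalanine ammonia-lyase name, fell by 5.29 (SE 0.47, adjusted p = 3.92e-06) at 3 h and fell by 2.37 (SE 0.47, adjusted p = 0.00107) at 6 h on 1 probe. Under quantile normalization the 6 h counts were 12 up and 2 down.

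The isoflavonoid branch, which for vestitol follows deoxychalcone formation, had 32 tested targets. At 3 h 21 of them were higher, 8 lower and 3 below the threshold (median 3.44), and at 6 h the numbers were 22, 7 and 3 (median 3.56). Its medians were 2.12 and 2.25 under quantile normalization, 2.26 and 2.11 on slide 2 alone (33 targets tested), and 1.01 at both times over all 49 targets without the filter. Between 6 h and 3 h, 1 of the 32 passed in limma, as did 0 of 38 in chalcone and flavanone formation and 0 of 20 in phenylpropanoid entry, beside 5.35% of all probes. Shares this near the background, whose count of 177 probes was between 19 and 660 over the alternatives, are no result about these lists. A methyltransferase name, 7Methyl8_LjSGA_093653.2, rose at 3 h by 6.21 (SE 0.32, adjusted p = 1.05e-07) on its brighter probe. Its other probe, not well above background in unelicited leaves, had a bound of at least 138-fold higher on the processed signal and was 24.4-fold higher with normexp. PTR1_chr3.CM0216.40.nd, a name of the late isoflavonoid steps, was at 9.02 ± 0.57 in GSH 6 h leaves and 0.23 ± 2.54 in unelicited leaves (adjusted p = 3.98e-05). Of the hydroxyisoflavanone dehydratase names, HID5_chr4.CM0079.310.nc fell by 5.85 (SE 0.51, adjusted p = 2.91e-06) at 6 h, and at 3 h a probe of HID8_chr4.CM0079.280.nc had a bound of at least 20.7-fold lower on the processed signal, and was 4.28-fold lower with normexp. The tested names of this enzyme had both directions. HID4_LjB01D01.90.nc differed by −4.00 at 3 h and −3.48 at 6 h. HID3 rose by 4.26 and 3.90, and HID2_LjSGA_020298.1 rose by 1.59 and 3.47.

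**Figure D3:**
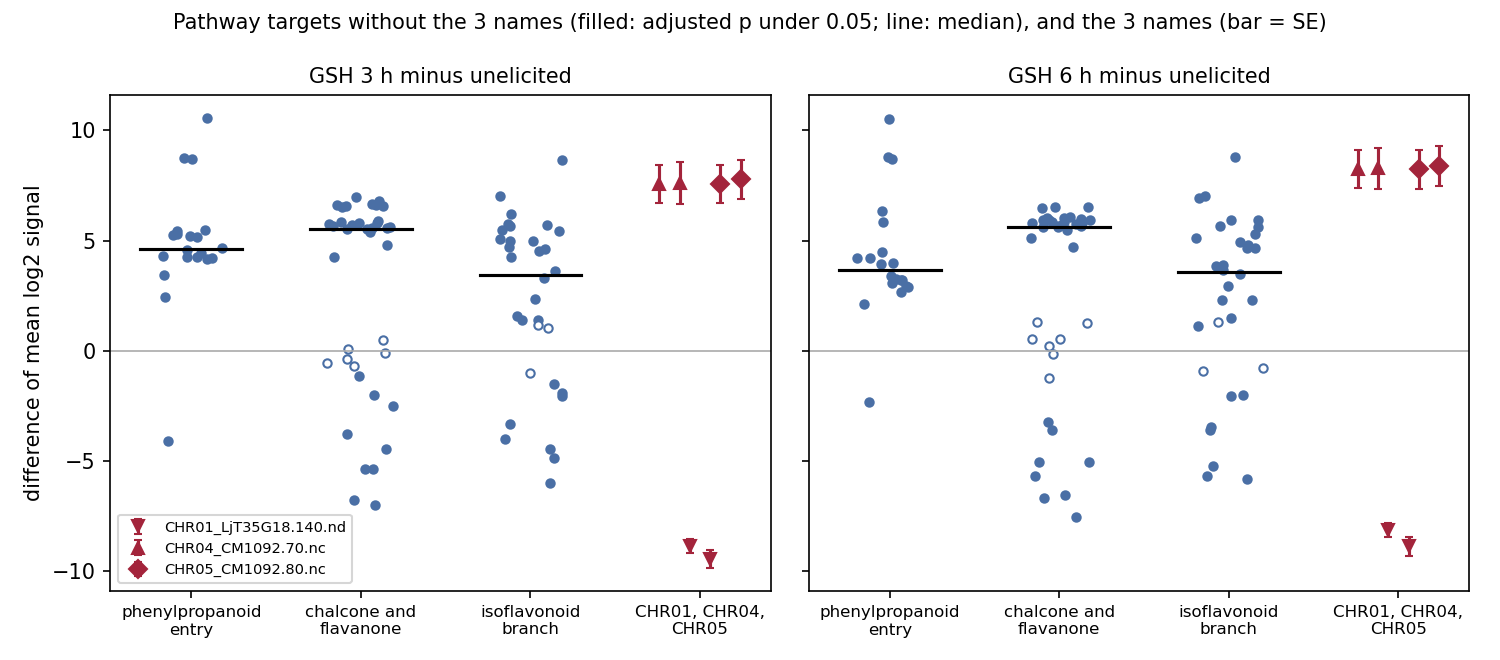
Difference of mean log2 signal from unelicited leaves (y axis) at 3 h (left) and 6 h (right) for tested targets of 3 pathway lists without the 3 names (filled points passed an adjusted p of 0.05, lines are medians), and for both probes of CHR01, CHR04 and CHR05 (bars are SE). CHR04 and CHR05 lie above the median of each list, at 7.56 to 8.38, and CHR01, whose GSH values lie near background, is drawn below every list target shown.

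The targets whose profiles were most like each name were found by Pearson correlation over the 10 arrays among 1943 other targets, each the mean of its tested probes. For CHR01 these were LjAUX-IAA1 (r = 0.999), of the Aux/IAA repressors of auxin signalling, LjZF-C2H2-100 (0.996), a zinc finger name, UGT74K_LjSGA_086482.1 (0.995) and UGT85J_LjSGA_013948.3 (0.995), of the UDP-glycosyltransferases, and LjbHLH23 (0.995). LjAUX-IAA1 had the same shape with a smaller step, at 4.61 in unelicited leaves, 1.61 at 3 h and 1.74 at 6 h. LjZF-C2H2-100, UGT74K_LjSGA_086482.1 and LjbHLH23 averaged −6.18, −5.88 and −5.56 at 3 h and −5.67, −5.72 and −4.99 at 6 h. These values, like those of CHR01, lie near the floor. The lowest well-measured signals on the GSH arrays were −5.13 to −4.01. As many as 278 targets correlated with CHR01 above 0.95, so likeness of this kind is common on the array.

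For CHR04 the most alike target was CHR05, and for CHR05 it was CHR04. After it came, for both, the RING-type zinc finger name LjZF-C3HC4-132 (r = 0.994 for each) and the chalcone synthase names CHS08_chr2.CM0018.1080.nc (0.992 for each) and CHS17_chr2.CM0018.680.nc (0.991 with CHR04 and 0.992 with CHR05). BGLUG2_LjSGA_069328.1.1 (0.990 and 0.991) was the last of the 5. CHS08 averaged 1.05 in unelicited leaves, 6.88 at 3 h and 7.50 at 6 h. Above 0.95 there were 164 targets for CHR04 and 167 for CHR05.

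**Figure D4:**
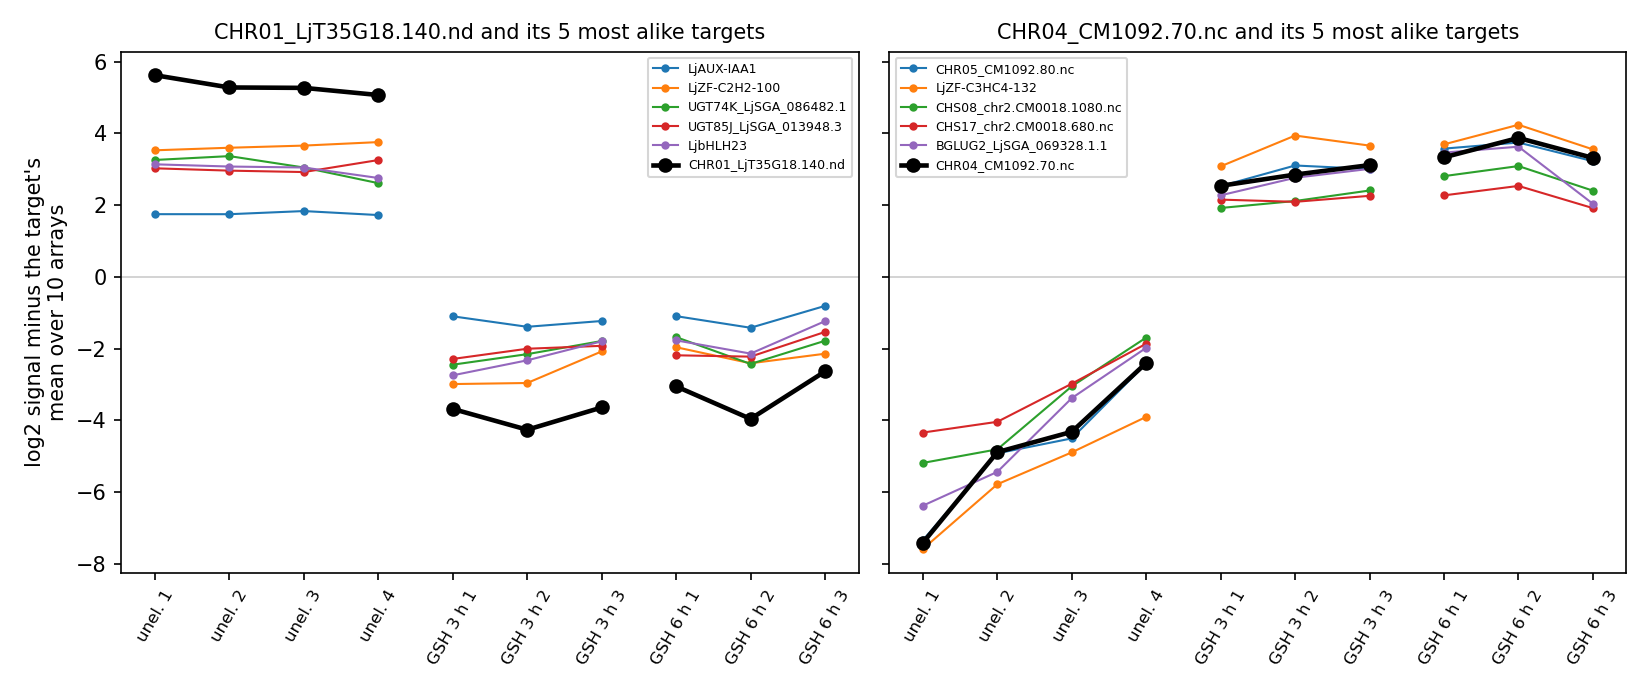
Log2 signal minus each target's mean over the 10 arrays (y axis) on each array (x axis) for CHR01 (left) and CHR04 (right), in black, with the 5 targets most correlated with each. The CHR01 profile is flat within unelicited leaves and steps down after GSH. The CHR04 profile steps up from unelicited values that differ between arrays, as they do in its alike targets, which were picked for likeness on these arrays. Values of LjZF-C3HC4-132 and BGLUG2_LjSGA_069328.1.1 in unelicited replicates 1 and 2 lie near the floor.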

How the data were processed

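Cy3-labelled leaf RNA was hybridised to 10 arrays, 1 per sample. The submitters' processing notes name Agilent Feature Extraction 10.7.3.1. The deposited values are its spot intensities, per the file headers background-subtracted, detrended, and not normalized between arrays. Flags for outliers, saturation and spots well above background are other columns of the deposited files. The deposited value table held the same signal for all 6252 features.

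Log2 signal minus the array's 75th percentile was fitted by group with limma 3.58.1 under R 4.3.3 (lmFit, eBayes; all 10 arrays), two-sided, with Benjamini-Hochberg adjustment over the 3309 probes that at least 1 group had well above background throughout. Outlier spots were left out (none of the members'). A group not well above background on any array gives a bound, "at least N-fold": the brighter mean against, per array, the higher of the dim probe's signal and the lowest well-measured one. Members and lists were chosen with earlier results of these data known. The named genes are the members, the other CHR names, the 5 most correlated targets per member, and the largest rise and fall per list and contrast. The prefix 4CL met 0 names. The fit was tested on simulated data, with log2 changes set between 6 h and 3 h for 200 of 3148 probes. It recovered 22.4% of changes of 1, 56.7% of changes of 2 and 90.9% of changes of 4, with 6 false calls. A change below 1 on this scale would thus mostly be missed. Figures used matplotlib 3.10.9.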

Additional observations from a re-analysis of the deposited data

How the results depend on the processing

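CHR01 stayed below and CHR04 and CHR05 above unelicited leaves under all alternatives run, at both times. CHR01 ranged from −10.83 (quantile normalization) to −5.33 (normexp) at 3 h and from −10.33 to −5.85 at 6 h, CHR04 from 6.04 (quantile) to 8.43 (replicate block) and from 6.59 to 9.09, and CHR05 from 6.09 to 8.56 and from 6.51 to 9.17. The stricter filter on dim probes left CHR01 untested. Scaling on probes well above background on all arrays put the median probe at −1.11 at 3 h and −1.13 at 6 h, where it was otherwise −0.05 and −0.07, with 801 higher and 1660 lower at 3 h and 835 and 1680 at 6 h, in place of 1240 and 1216, and 1240 and 1271. CHR04 probe 1 then differed by 6.50 at 3 h, and CHR01 probe 1 by −9.94.

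Between 6 h and 3 h, no member probe passed under any alternative, the GSH arrays alone included (adjusted p from 0.124 to 0.966). With normexp the sign turned for CHR01 (−0.44 and −0.51) and CHR02 (−0.41 and −0.58), whose GSH values are mostly not well above background. CHR02 probe 2 ranged from −0.38 to 0.53 with 1 array left out, among them −0.06 without GSH 6 h replicate 1. The count of probes called between the times, 177, was 112 with quantile normalization, 19 with normexp, 109 without a filter, 660 with the slide as a block, 500 on slide 2 alone, 404 on the GSH arrays alone and 117 with the probes of a name averaged. It was 29, 88 and 58 without GSH 3 h replicates 1, 2 and 3, 112 and 27 without GSH 6 h replicates 1 and 2, and 27 to 193 over all arrays left out in turn. Against unelicited leaves the counts were 1603 with normexp at 3 h (1015 higher, 588 lower), and 1496 and 1538 names at 3 h and 6 h with probes averaged, where fewer features were tested. The causes were not tested. With the replicate block 80 probes were called between the times. Same-numbered samples correlated at −0.04 to 0.06 in their deviations, and 10 of 18 checks found the own number best. Unelicited replicates 1 and 2 were on slide 1 and replicate 3 on slide 2, so these checks cannot decide whether the numbers mark pairs. The numbers were not taken as pairs.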

Other observations

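CHR04 and CHR05 were lowest in unelicited replicate 1 and highest in unelicited replicate 4, and other flavonoid genes were counted for the same placing after those values had been seen. Among targets well above background on all unelicited arrays, replicate 4 was highest and replicate 1 lowest for 19 of 35 targets of chalcone and flavanone formation (54.3%) and for 11 of 29 of the isoflavonoid branch (37.9%). It was so for 1 of 16 targets of phenylpropanoid entry (6.25%) and for 218 of 2867 tested probes in all (7.60%). Replicate 4 stood above replicate 1 by a median of 1.74 in chalcone and flavanone formation and of 1.45 in the isoflavonoid branch, while the median was −0.24 in phenylpropanoid entry and −0.03 over all probes. The replicates lie on different slides, and the slide's part in this was not tested.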
